A study of Mus musculus with 3 samples.

Results

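Of the Rgs family, 9 genes that encode regulators of G protein signalling were followed in mature mast cells, their progenitors and type 2 innate lymphoid cells (ILC2s), and Rgs18 showed the widest differences, with Rgs2 and Rgs13 next. The genes were Rgs1, Rgs2, Rgs3, Rgs10, Rgs13, Rgs14, Rgs16, Rgs18 and Rgs19, taken by symbol from the platform's gene table and chosen by their log2 levels on these same arrays. They carried 10 probe sets, a pair of them for Rgs2, out of 23521 probe sets that named 1 gene and 22180 genes in all.

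The cells came from the peritoneal cavity of naive female BALB/c mice aged 10 to 11 weeks. Cells of 5 mice were pooled and sorted in a pair of rounds by flow cytometry, with 100 cells of each population amplified and hybridised to 1 whole-transcript array. Both mast cell gates took cells with no or low lineage markers, high c-kit, FcεRI (the high-affinity IgE receptor), T1/ST2 and intermediate CD16/32, and neither CD127 nor CD25. Low side scatter with high integrin β7 set the progenitor gate, whereas the mature gate took high side scatter with negative to intermediate integrin β7. ILC2s were negative for lineage markers, FcεRI and CD16/32, negative or low for c-kit, and positive for CD127, CD25 and T1/ST2. Each population had 1 array, so values come without errors, differences could not be tested and the order of levels cannot be set against a spread. The amount of RNA per cell and the share of cells that carry a transcript cannot be told apart in such pools.

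RGS proteins switch off heterotrimeric G proteins. A receptor with bound ligand loads a Gα subunit with GTP, the Gα and Gβγ subunits then act on enzymes and channels, and an RGS domain speeds the hydrolysis of that GTP so that the signal ends. In mast cells G protein-coupled receptors for adenosine, prostaglandins, chemokines and cationic peptides modulate degranulation and migration, and in lymphoid cells chemokine and lipid receptors of this class direct movement.

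Values are log2 expression levels, so a difference of 1 is 2-fold and a difference of 2 is 4-fold. A gene was counted in a pair of populations when its levels differed by at least 4-fold and the brighter level lay above the median of that array. The medians were 6.32 (progenitors), 6.30 (mature mast cells) and 6.30 (ILC2s). Of the 9 Rgs genes, 8 were above the median of at least 1 array, as were 11938 of all 22180 genes. On all 3 arrays 5 of the 9 were above it, and the share of all genes there was not counted. Rgs1 alone stayed below it everywhere. Counts use the differences as measured. Folds given against a level under its array's median are lower bounds, computed against that median, unless marked as measured.

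Of the transcripts that define the sorted populations, some but not all differed between the arrays. Of 10 mast cell marker genes 7 were at least 4-fold higher in mature mast cells than in ILC2s and 3 in progenitors, and of 10 measured ILC2 marker genes 4 were at least 4-fold higher in ILC2s than in either mast cell population. The mast cell carboxypeptidase gene Cpa3 was at 12.30 in progenitors against 12.83 in mature mast cells, and 5.28 in ILC2s. The interleukin 7 receptor gene Il7r was at 5.89, 5.76 and 8.72 in the same order. Kit, at 6.88, 10.29 and 6.63, and Fcer1a, at 5.37, 8.87 and 5.05, were both highest in mature mast cells, although both mast cell populations were gated on the proteins. The integrin β7 gene Itgb7 was at 7.60 in progenitors and 7.82 in both other populations, although the progenitor gate took high integrin β7. Gata3, a transcription factor of ILC2s, was at 6.76 in both mast cell populations and 6.82 in ILC2s, and Rora, another, was at 6.64 on every array. Of 37 measured marker genes of macrophages, B, T and NK cells, neutrophils, eosinophils and platelets, 18 had exactly the same level on all 3 arrays. Of all genes 47.9% did too. None of the 37 varied by as much as 2-fold, the widest range being 0.77, and only 4.46% of all genes did. Bright genes were lower more often in progenitors. For each population, genes were taken whose levels on both other arrays exceeded 8 and differed there by no more than 2-fold. In progenitors 10.2% of 489 such genes were lower by 4-fold or more, in mature mast cells 0% of 371 and in ILC2s 1.24% of 402.

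In a chromosome segment whose protein-coding genes are all RGS genes, the members had different patterns. By gene order in the RefSeq annotation of GRCm38.p6, the 5 consecutive protein-coding genes Rgs2, Rgs13, Rgs1, Rgs21 and Rgs18 lie together on chromosome 1, and 4 of them are among the genes described. Rgs16 is on the same chromosome outside this segment, and Rgs3, Rgs10, Rgs14 and Rgs19 are on chromosomes 4, 7, 13 and 2. Rgs2 and Rgs13 are next to each other, and their patterns differed, Rgs2 being highest in ILC2s and Rgs13 in mature mast cells. The 250 bases before each start are shown to set this pair side by side, from RefSeq with the build GRCm38.p6, 5′ to 3′. Capitals mark matches on either strand to GATAA, a core bound by GATA factors, and to CANNTG, the general E-box of basic helix-loop-helix factors. Single factors of that class bind only some of its forms. The motifs and the pair of genes were picked after the levels were seen.
Rgs2 (chr1:144004150-144004399, minus strand): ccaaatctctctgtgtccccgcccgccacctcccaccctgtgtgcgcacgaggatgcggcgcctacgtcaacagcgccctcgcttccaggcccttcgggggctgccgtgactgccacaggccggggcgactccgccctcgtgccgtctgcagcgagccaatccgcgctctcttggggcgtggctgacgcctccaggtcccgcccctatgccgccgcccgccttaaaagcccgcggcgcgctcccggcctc
Rgs13 (chr1:144177373-144177622, minus strand): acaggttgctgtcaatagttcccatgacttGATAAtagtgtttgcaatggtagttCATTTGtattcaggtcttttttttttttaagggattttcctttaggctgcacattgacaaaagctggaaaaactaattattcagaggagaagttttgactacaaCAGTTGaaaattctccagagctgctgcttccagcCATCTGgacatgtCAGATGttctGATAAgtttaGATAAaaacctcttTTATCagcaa
The sequence before Rgs13 held 4 matches to GATAA and 4 to CANNTG, and no match overlapped another. The sequence before Rgs2 held none of either, and neither held TATAAA. Over all 32851 promoter windows of this length in the table, 22.6% held at least 1 GATAA, 66.2% at least 1 CANNTG and 12.4% at least 1 TATAAA. The share of windows with as many as 4 matches was not computed. Entries were found for 6 of the 9 genes. The single Rgs16 window and 1 of the 2 Rgs3 windows held 1 GATAA match each, and the windows of Rgs10 and Rgs19 held no GATAA. The other Rgs3 window and 1 Rgs19 window held 2 CANNTG matches each, and the windows of Rgs10 and Rgs16 held no CANNTG. Each Rgs3 window held 1 TATAAA match. These matches describe the letters only.

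**Figure D1:**
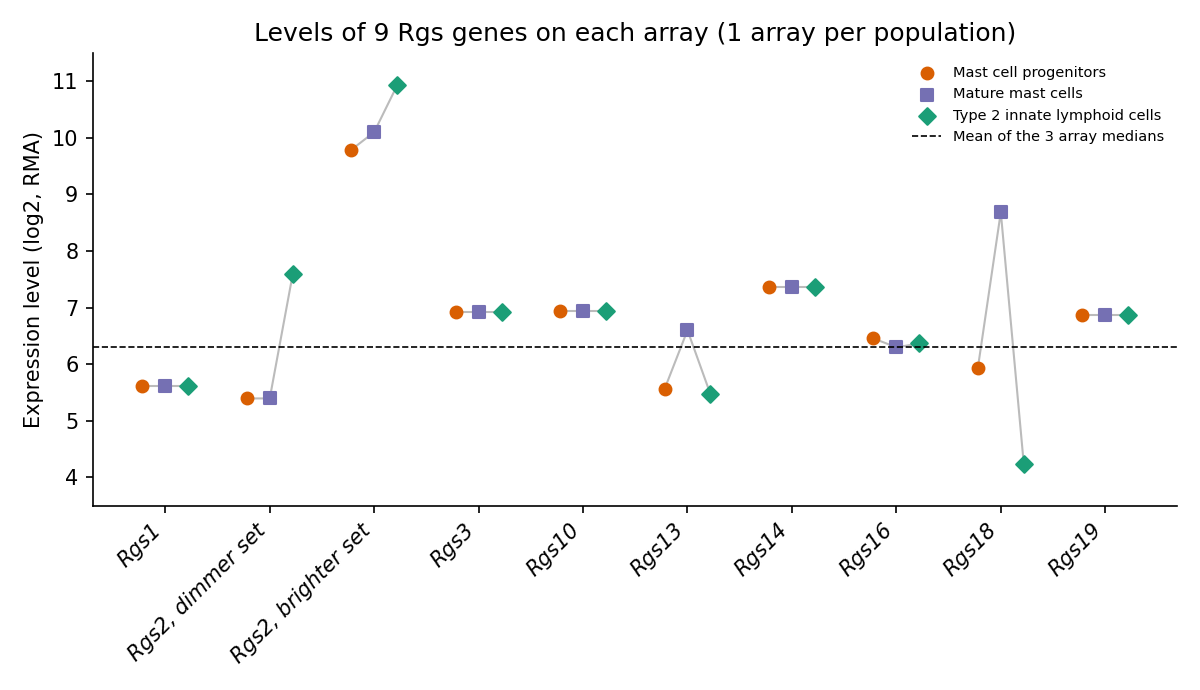
Log2 expression levels (vertical axis) of the 10 probe sets of the 9 Rgs genes (horizontal axis), 1 point per array, with the dashed line at the mean of the 3 array medians. Rgs18 peaks in mature mast cells at 8.69, both Rgs2 probe sets are highest in ILC2s, Rgs13 rises above the line in mature mast cells only, and 5 genes are flat.

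Rgs18 was highest in mature mast cells. It encodes a small RGS protein, known best from platelets and megakaryocytes, that acts on Gαi and Gαq. Its level was 5.93 in progenitors against 8.69 in mature mast cells, and 4.24 in ILC2s. Only the mature cells were above their array's median. The difference between mature mast cells and ILC2s was 4.45, which is at least 5.22-fold by the bound. Between mature cells and progenitors the difference was 2.76, at least 5.17-fold. Progenitors were 1.69 above ILC2s, but both levels lay below their medians, so no fold is given. Because the gene was picked with these values known, they describe it and test nothing.

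Rgs18 was thus the only one of the 9 genes past 4-fold between progenitors and mature mast cells, where 0.947% of all genes passed in either direction and 0.834% with progenitors lower. It was again the only one between mature mast cells and ILC2s, where 0.974% of all genes passed and 0.573% with mature cells higher. Between progenitors and ILC2s none of the 9 passed, against 1.10% of all genes. It was among 108 genes, 0.487% of all, that were past 4-fold in mature mast cells over both other populations. Kit, Fcer1a and 10.2% of the bright genes described above were lower in progenitors too, and their part in the Rgs18 difference between the mast cell populations was not tested. Platelet genes were set beside Rgs18, and a platelet part in its levels was not tested. Of 4 measured of 6 listed, Pf4, Ppbp and Itga2b had the same level on every array, as did 47.9% of all genes. Gp9 was at 7.36 in progenitors and 7.10 in both other populations. The mean level of these 4 was 6.73 in progenitors against 6.67 in mature cells, and 6.67 in ILC2s.

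**Figure D2:**
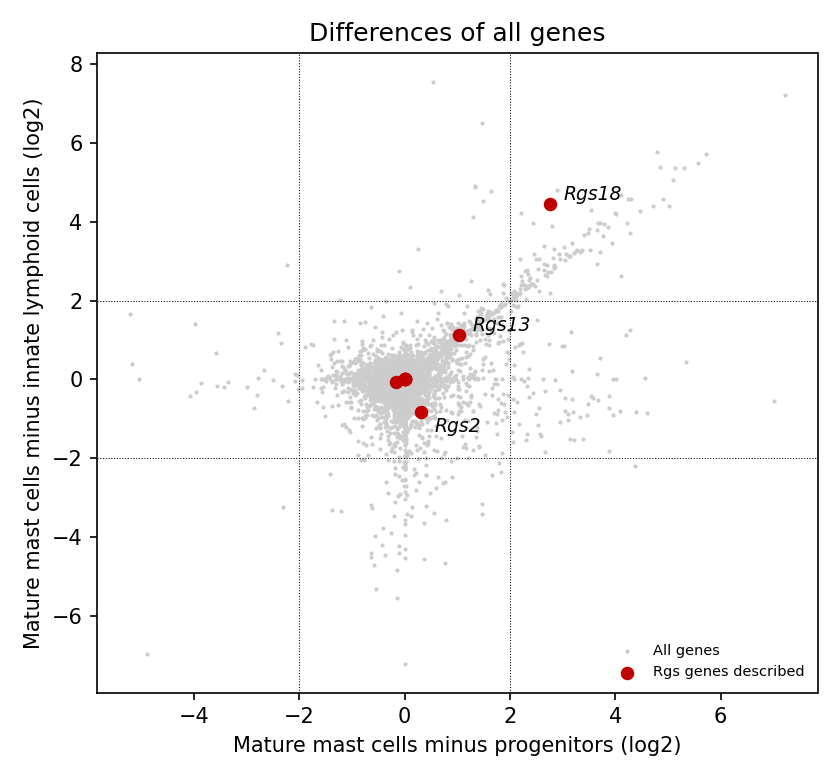
Differences of log2 levels of mature mast cells from progenitors (horizontal axis) and from ILC2s (vertical axis) for 22180 genes (grey) and the 9 Rgs genes (red), with dotted lines at 4-fold. Rgs18 lies past both upper lines at 2.76 and 4.45, Rgs13 lies on the same side at 1.04 and 1.13, and Rgs2 lies at 0.31 and -0.83.

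Genes with a pattern like that of Rgs18 were sought by centring each gene on its own mean and taking the largest deviation over the 3 arrays, among 10363 genes above the median of at least 1 array with established names. The nearest was Mrgprb1, a Mas-related G protein-coupled receptor gene of mast cells, at 7.66, 10.55 and 5.73 in progenitors, mature cells and ILC2s, with a largest deviation of 0.20. It was followed by Serpinb1a, which encodes a serine protease inhibitor (8.27, 10.71 and 6.73, deviation 0.26), and Aldh2, which encodes mitochondrial aldehyde dehydrogenase (9.20, 11.41 and 7.19, deviation 0.29). Mrgprb1 was the only gene within 0.25. The likeness rests in part on dim levels, as Rgs18 lay below the median in progenitors and ILC2s and Mrgprb1 in ILC2s. Likeness over 3 points is a description of these arrays.

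Rgs13 was also highest in mature mast cells, with a smaller difference. It encodes a very short RGS protein, known from germinal centre B cells and from mast cells, where mice lacking it degranulate more after IgE and antigen. Its level was 5.56 in progenitors against 6.60 in mature mast cells, and 5.47 in ILC2s. Mature cells alone were above the array median, by a small margin. They were 1.04 above progenitors and 1.13 above ILC2s as measured. Both of those lay below their medians, which leaves bounds of at least 1.22-fold and at least 1.23-fold. By measured differences, 2.44% of all genes differed by at least 2-fold between the mast cell populations and 2.60% between mature mast cells and ILC2s under the same floor. Of the 9 Rgs genes 2 did in each comparison, Rgs13 and Rgs18.

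Rgs2 was highest in ILC2s by both of its probe sets. It encodes an RGS protein that acts mainly on Gαq and is induced by many stimuli. The brighter probe set read 9.79 in progenitors against 10.10 in mature mast cells, and 10.93 in ILC2s. ILC2s were thus 2.20-fold above progenitors and 1.77-fold above mature mast cells, and mature cells were 1.24-fold above progenitors. The dimmer probe set read 5.39 in both mast cell populations and 7.59 in ILC2s, a difference of 2.20 on the log2 scale or 4.58-fold as measured, and at least 2.42-fold over the progenitor median. The probe sets gave the same highest population and disagreed in size, and only the dimmer one passed 4-fold. By the brighter set Rgs2 was the only one of the 9 past 2-fold between progenitors and ILC2s with the brighter level above its median, where 2.65% of all genes were. Rgs18 differed by more there but lay below the median on both arrays. After quantile normalization the Rgs2 difference of progenitors from ILC2s was -0.85 on the log2 scale, short of 2-fold, and that of progenitors from mature cells was -0.07 in place of -0.31. The dimmer probe set showed no difference between the mast cell populations. The part of the bright genes that were lower in progenitors, given above, in the Rgs2 difference of progenitors from ILC2s was not tested.

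The other neighbours in the segment were flat or dim. Rgs1, a regulator of chemokine responses in lymphocytes, was at 5.62 on all 3 arrays. Rgs21, known from taste cells, was at 4.48 in progenitors and at 4.44 in both other populations. Of the genes on either side of the segment, Uchl5, which encodes a deubiquitinase of the proteasome, was at 6.11 in progenitors against 6.52 in mature cells, and 7.09 in ILC2s. That is the same order as Rgs2 next to it. Brinp3, on the Rgs18 side, was at 5.32 everywhere.

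**Figure D3:**
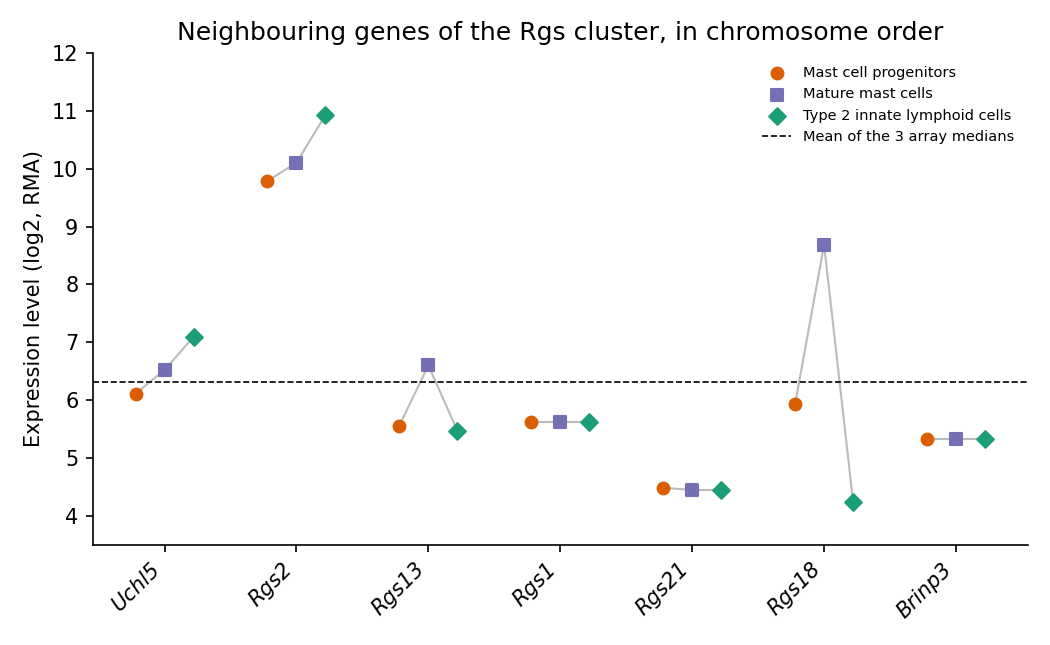
Log2 expression levels (vertical axis) of the 5 consecutive Rgs genes and the protein-coding genes on either side, in chromosome order (horizontal axis, not to scale), 1 point per array, with Rgs2 by its brighter probe set. Rgs13 and Rgs18 peak in mature mast cells, Uchl5 and Rgs2 in ILC2s, and Rgs1 and Brinp3 are flat.

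Of the remaining 5 genes, 4 had exactly the same deposited level on all 3 arrays and none reached 2-fold. Rgs16, an activation-induced regulator in lymphocytes, was at 6.46 in progenitors against 6.30 in mature mast cells, and 6.37 in ILC2s, a range of 0.16 close to the array medians. Rgs3, which acts on Gαi and Gαq, was at 6.93 on every array. Rgs10, a regulator of Gαi in immune cells and platelets, was at 6.94 and Rgs14, which also binds Gαi-GDP through a GoLoco motif, at 7.37. Rgs19, also called GAIP, was at 6.88. With Rgs1, 5 of the 9 genes were thus equal on all 3 arrays, as were 47.9% of all genes. Among all genes, equal levels made up 49.7% of those with a mean below 6, where Rgs1 lies, and 52.1% at 6 to 7, 40.2% at 7 to 8 and 7.79% at 8 or more. The cause of the equal levels was not tested.

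The 12 other Rgs genes of the table showed no difference of 2-fold. They were Rgs4, Rgs5, Rgs6, Rgs7, Rgs8, Rgs9, Rgs11, Rgs12, Rgs17, Rgs20, Rgs21 and Rgs22, several of them known mainly from neurons, retina or smooth muscle, and 7 were equal on all 3 arrays. Their widest range was 0.68, that of Rgs5, against 4.45 for Rgs18. Over the 21 Rgs genes together, 3 (14.3%) spanned at least 2-fold and 1 (4.76%) at least 4-fold over the 3 arrays, with no floor. The shares were 4.46% and 1.77% of all genes. The median range was 0 for the 21 Rgs genes and 0.01 for all genes. Rgs8 was the widest of those above a median, at 7.06 in progenitors and 6.87 in both other populations. Of 16 measured relatives with an RGS domain or partners of RGS proteins none differed by 2-fold, and the sorting nexin gene Snx14 had the widest range of those above a median, at 6.15 in both mast cell populations and 6.79 in ILC2s. Axin2, a scaffold of the Wnt pathway, was at 7.19 in progenitors and 7.35 in the others, and Grk6, which encodes a receptor kinase, at 7.17, 7.22 and 7.17.

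Among the G proteins on which RGS proteins act, 1 Gα gene stood close to 4-fold. Gnai3, which encodes the inhibitory subunit Gαi3, was at 6.60 in progenitors against 8.59 in mature mast cells, and 6.60 in ILC2s. The mature cells were 3.96-fold above each of the others, just short of 4-fold and on the same side as Rgs18. Gnai2, which encodes the Gαi subunit most abundant in leukocytes, was at 6.91, 6.87 and 7.82, highest in ILC2s as Rgs2 was. Gnaq, which encodes the Gαq subunit, was at 6.28 in both mast cell populations and 6.56 in ILC2s. None of 16 Gα genes passed 4-fold in any comparison, and their median difference was 0 in each.

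Of 14 measured Gβ and Gγ genes none passed 4-fold. Gnb1, which encodes a broadly expressed Gβ subunit, was at 7.10 in progenitors against 8.11 in mature mast cells, and 7.88 in ILC2s, a 2.02-fold difference between the mast cell populations. The Gγ gene Gng7 was at 8.06, 7.70 and 7.72. Of 23 measured effectors and modulators 1 passed 4-fold, with mature mast cells higher than either other population, as in 0.487% of all genes. This was Pik3cg, which encodes the Gβγ-activated phosphoinositide 3-kinase γ, at 6.17 in progenitors against 8.47 in mature cells, and 6.07 in ILC2s. The phospholipase gene Plcb3, whose product Gαq activates, was at 6.92, 6.70 and 6.93, and Ric8a, which encodes a Gα chaperone, at 7.05, 7.05 and 7.26.

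**Figure D4:**
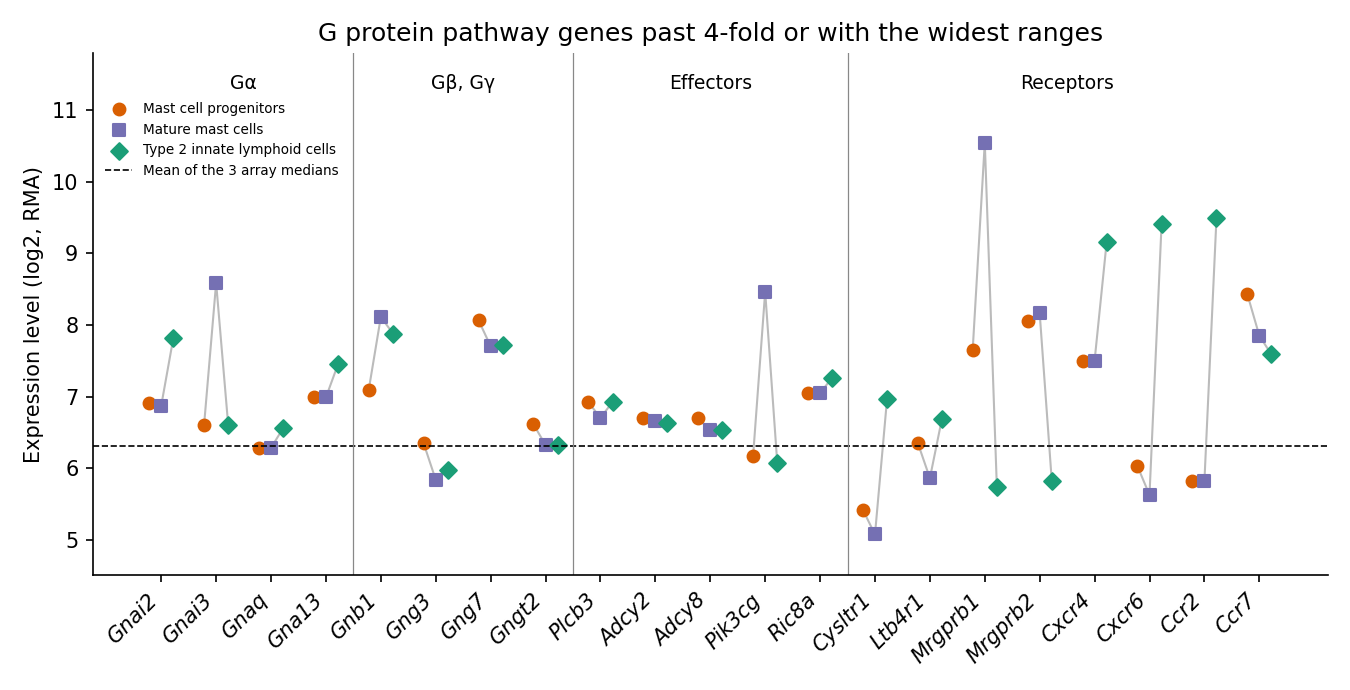
Log2 expression levels (vertical axis) of G protein subunit, effector and receptor genes (horizontal axis) that passed 4-fold or had the widest ranges of their list, 1 point per array, with the dashed line at the mean of the 3 array medians. Gnai3, Pik3cg and Mrgprb1 peak in mature mast cells, and Ccr2, Cxcr6 and Cxcr4 are highest in ILC2s.

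Of 40 measured G protein-coupled receptor genes, which act upstream of the RGS proteins, 4 passed 4-fold in at least 1 comparison. With no floor, 1.77% of all genes spanned at least 4-fold over the 3 arrays. The receptor list was chosen with earlier results of these data known, and its Cxcr6 is also an ILC2 marker. The count of 4 therefore describes the list only. Mrgprb1 was highest in mature mast cells, with the values given beside Rgs18. Mrgprb2, which encodes a receptor that senses cationic secretagogues, was at 8.06 in progenitors against 8.16 in mature cells, and 5.82 in ILC2s. The chemokine receptor genes Ccr2 and Cxcr6 were highest in ILC2s, Ccr2 at 5.82, 5.82 and 9.50 and Cxcr6 at 6.03, 5.63 and 9.41. Short of 4-fold, the chemokine receptor gene Cxcr4 was at 7.50 in both mast cell populations and 9.16 in ILC2s. Cysltr1, a cysteinyl leukotriene receptor gene, was at 5.42, 5.07 and 6.97, and Ccr7, which encodes a lymph node homing receptor, at 8.43, 7.85 and 7.59. The adenosine receptor gene Adora3, at 6.46, and the prostaglandin E2 receptor gene Ptger3, at 7.03, had the same level on all 3 arrays. The median difference over the receptor list was 0 in each comparison, as over all genes.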

How the data were processed

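Log2 levels from 3 arrays, 1 per population, were used as the authors deposited them. Per the submitters' processing notes the authors used RMA, with software and version not given. RMA usually corrects background, normalizes arrays and reduces each probe set by median polish. That the scale is log2 follows from the values, which span 2.23 to 13.7. The number of arrays limits the precision. The study's genome build is not given in the sources used here, and coordinates are those of the RefSeq sequences alone.

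Of 41345 probe sets, 23521 named 1 gene, 1814 named several and 16010 were unnamed in the table used. For each gene the probe set of highest mean was used, and Rgs2 is also given by each. Differences were computed with pandas 2.3.3 and numpy 2.4.6 under Python 3.11.15. The counting code was run on simulated data with large differences and little noise, which checks the code and not these data. No test was possible. Genes outside the 9 were named if past 4-fold, or as up to 4 further genes of each list with the widest range above a median (up to 5 for markers). Rgs5, Rgs21, Uchl5, Brinp3, Adora3, Ptger3, Ppbp, Gata3 and Rora lie outside this rule and were chosen with values seen. The members and lists were chosen with earlier results of these data known. Alternatives were other floors, array scalings, probe set rules and a 2-fold threshold. Proteins were not analysed here.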

Additional observations from a re-analysis of the deposited data

How the results depend on the processing

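The count of Rgs genes past 4-fold was the same, with Rgs18 the gene counted, without a floor, with a floor at the 75th percentile, with arrays set to one median, after quantile normalization and with the mean of a gene's probe sets. With the probe set of widest range in place of the brightest, Rgs2 was counted too. This gave 1 gene between progenitors and ILC2s and 2 between mature mast cells and ILC2s. Under that rule 1.16% and 1.05% of all genes passed in these comparisons. At 2-fold the counts were 2 (progenitors and mature mast cells), 1 (progenitors and ILC2s) and 2 (mature mast cells and ILC2s). The shares of all genes were 2.44%, 2.65% and 2.60% in the same order. Of 108 recomputed differences of single genes, 100 moved by less than 0.1 on the log2 scale and none that was past 4-fold changed sign. The 8 that moved further were all of Rgs2. Its difference of progenitors from ILC2s was -0.85 after quantile normalization and -1.67 with the mean of its probe sets, against -1.14. No spread between replicates exists to set these against. No paired analysis was possible because each population had 1 array. Differences of dim genes are limited by signal close to background, which the deposited levels do not mark.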

Other observations

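Rgs2 and Rgs13 were set beside other genes in the way described for Rgs18, a step added after their values were seen. The genes nearest in pattern to Rgs2 by its brighter probe set were Stx4a, which encodes a syntaxin of the plasma membrane (7.69 in progenitors against 7.98 in mature mast cells, and 8.83 in ILC2s, largest deviation 0.01), and Adprm (7.18, 7.50 and 8.35). Eef1b2, which encodes a translation elongation factor subunit, came next at 8.75, 9.05 and 9.83. Those nearest to Rgs13 were the mitochondrial ribosomal protein gene Mrpl11 (6.56, 7.64 and 6.48), Iqgap1, which encodes a cytoskeletal scaffold (6.94, 8.06 and 6.89), and Smpx (5.92, 6.87 and 5.79). Within a deviation of 0.25 lay 159 genes for Rgs2 and 129 for Rgs13. Rgs13 and some of these genes lay below the median on part of the arrays.

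Different genes often shared one level. The 10626 genes that were equal on all 3 arrays took 3533 distinct levels, and 8244 of them had a level that another such gene also had. The level of Rgs10, 6.94, was that of 41 genes, Rgs9 among them, and up to 71 genes had the same level. Probe signals were not analysed here, and the cause was not tested.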
